A study of Mus musculus with 3 samples.

Results

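A set of 5 genes, of 28676 in the count table, was named for late mature oligodendrocytes, the myelinating glia at the end of their differentiation. They are Ptgds, Apod, Klk6, Anln and Trf. They were listed by name and selected on their levels and co-detection in oligodendrocytes of these same libraries, so what follows on those measures is a description and not a test. The libraries came from the medial vestibular nucleus (MVN), the brainstem nucleus that receives input from the balance organ, of C57BL/6 mice (C57BL/6J in the study's methods) that were operated on at postnatal day 20 and killed 1 day later. In unilateral labyrinthectomy (UL) the balance organ of 1 ear is destroyed. The ULI library held the MVN on the operated side and the ULC library the MVN on the other side of the same 11 UL mice, and the control library came from 10 mice. By the study's methods the tympanic bulla of control mice was opened and UL was not done, although the treatment field of the sample records names labyrinthectomy for all 3 samples. Cells of several mice were pooled into the 1 library of a group, so the differences have no replicate check and no p-value is given.

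Oligodendrocytes pass from precursors through a newly formed stage, in which genes such as Enpp6 and Bmp4 are on, to cells that lay down myelin, and the mature cells then divide into states that differ in a limited set of genes. Ptgds codes for lipocalin-type prostaglandin D2 synthase, which makes prostaglandin D2 and also carries small lipophilic molecules. Apod codes for apolipoprotein D, a lipocalin that binds lipids such as arachidonic acid. Klk6 codes for kallikrein 6, a secreted serine protease. Anln codes for anillin, which scaffolds septin filaments in the myelin sheath and has another role in cell division. Trf codes for transferrin, the iron carrier that oligodendrocytes make in the brain. Most of them are also known from other cells, Ptgds from the choroid plexus and the meninges, Apod from fibroblasts of the meninges, Anln from dividing cells and Trf from the choroid plexus.

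The genes lie on 4 chromosomes of the mm10 assembly (GENCODE M21), and all are protein coding. Ptgds is at chr2:25466709-25470046 on the minus strand, Apod at chr16:31296192-31314808 on the minus strand and Klk6 at chr7:43824499-43832030 on the plus strand. Anln, at chr9:22332012-22389188, and Trf, at chr9:103204001-103230444, are both on the minus strand. A sense intronic RNA gene, Gm48646, lies within Anln, and Gm20425, annotated as protein coding on the same strand, overlaps Trf, so reads there could be assigned to either gene. The stretch of up to 250 bases before each start site is given for reference, and any part of it in the library differences was not tested. Bases that GENCODE counts as an exon of the gene are left out. RefSeq windows (GRCm38.p6) were at hand for 4 of the 5 genes, with 5 start sites, and Trf had none. Each is written 5′ to 3′ on the gene's strand, with matches on either strand in capitals to TATAAA, the TATA box, and to ACAAAG and ACAAT, letters that HMG-box factors such as Sox10 can bind. No match overlaps another. The stretches of Ptgds and of the second Klk6 start lie within the gene spans given above. The positions are chr2:25469843-25469999 for Ptgds, chr16:31314809-31315058 for Apod, chr7:43824294-43824498 and chr7:43825200-43825394 for the first and second starts of Klk6, and chr9:22389207-22389456 for Anln.
Ptgds: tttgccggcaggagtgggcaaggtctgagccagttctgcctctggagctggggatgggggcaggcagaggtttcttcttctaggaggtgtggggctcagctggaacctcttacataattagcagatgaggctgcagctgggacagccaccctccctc
Apod: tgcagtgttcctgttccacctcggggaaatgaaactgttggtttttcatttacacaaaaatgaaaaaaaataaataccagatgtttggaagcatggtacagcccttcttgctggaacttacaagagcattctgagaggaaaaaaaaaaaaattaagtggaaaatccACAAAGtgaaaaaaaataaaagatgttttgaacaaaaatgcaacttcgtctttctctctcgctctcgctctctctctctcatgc
Klk6, first start: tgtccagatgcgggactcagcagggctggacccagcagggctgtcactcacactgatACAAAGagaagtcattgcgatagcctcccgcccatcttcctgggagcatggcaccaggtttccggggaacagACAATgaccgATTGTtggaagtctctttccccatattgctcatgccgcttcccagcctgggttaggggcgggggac
Klk6, second start: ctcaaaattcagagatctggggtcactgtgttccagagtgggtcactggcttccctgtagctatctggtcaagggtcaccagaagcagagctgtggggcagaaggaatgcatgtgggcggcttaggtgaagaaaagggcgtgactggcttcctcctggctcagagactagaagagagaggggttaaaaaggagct
Anln: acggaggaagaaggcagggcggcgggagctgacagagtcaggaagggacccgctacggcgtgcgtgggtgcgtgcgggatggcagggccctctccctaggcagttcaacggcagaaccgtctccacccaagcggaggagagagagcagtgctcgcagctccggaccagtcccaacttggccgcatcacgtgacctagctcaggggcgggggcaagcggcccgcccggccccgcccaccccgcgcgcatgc
The 250 bases before the Apod start held 1 match to ACAAAG, and those before the first Klk6 start held 1 match to ACAAAG and 2 to ACAAT. The windows of Ptgds, Anln and the second Klk6 start held none of the 3, which says only that these letters were not there. Over all 32851 windows of this length, 12.4% held TATAAA, 16.5% ACAAAG and 27.7% ACAAT. The Anln window was rich in G and C (70.4%, with 24 CpG sites) and the Apod window poor (36.4%, with 4 CpG sites), against a median of 52.4% and 6 CpG sites over all windows.

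For 14876 barcodes the table holds unique molecular identifiers (UMIs), counted per gene, each standing for 1 captured RNA molecule. The 912 barcodes with under 200 genes were left out, which kept 13964 cells. A cell was taken as an oligodendrocyte when at least 3 of Mog, Mag, Mobp, Opalin, Ermn and Cldn11 had a UMI, which gave 1554 control, 1293 ULI and 1177 ULC cells, or 33.7%, 26.9% and 25.9% of the cells. Their depth fell in the same order, with medians of 4887, 1477 and 817 UMIs. All 6 markers were found in each library, and Cldn11 had a UMI in 97.7% to 99.7% of these cells, but the makeup of the group was not the same: 36 control, 266 ULI and 141 ULC oligodendrocytes also had at least 3 of 5 markers of the newly formed stage (Bmp4, Enpp6, Gpr17, Neu4 and Tmem2). The summed level of those 5 markers, all above 0 in each library, was 750 in the control library and 2347 and 2216 in ULI and ULC, in CPM, that is, counts scaled to 1e+06 UMIs of the oligodendrocytes. With these cells counted in, 195, 315 and 193 oligodendrocytes reached 3 markers of at least 1 other class. The barcodes are named by running numbers, so it could not be counted whether libraries shared any. Ranges in parentheses are exact 95% intervals (Poisson for levels in CPM, binomial for the rest), and they cover counting error only.

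In oligodendrocytes, Ptgds was far higher in both UL libraries than in control, while Apod, Klk6, Anln and Trf were all lower. The control level of Ptgds was 16.2 CPM (14.3 to 18.3), against 660 (641 to 679) in ULI and 1151 (1119 to 1183) in ULC. The 3 intervals were far apart, and the level was 40.7-fold higher in ULI and 71.0-fold higher in ULC than in control, or 5.35 (5.17 to 5.53) and 6.15 (5.97 to 6.33) on the log2 scale. Ranked among all genes that had 50 UMIs or more in the libraries compared, Ptgds was 19 of 11598 by the ratio of ULI to control and 14 of 11544 by that of ULC to control. Both ratios share the control library, whose 267 Ptgds UMIs came from 48 cells, 16.5% of them from 1 cell. Without the cell richest in Ptgds in each library, a setting added after the data were seen, the ratios were 5.55 and 6.33.

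Apod, the lipid-binding lipocalin, had 8157 CPM (8113 to 8201) in control cells, with 2675 (2637 to 2712) left in ULI and 1861 (1821 to 1902) in ULC. This was 3.05-fold lower in ULI (log2 -1.61, -1.63 to -1.59) and 4.38-fold lower in ULC (log2 -2.13, -2.16 to -2.10). Trf, the iron carrier, was at 1890 CPM (1869 to 1911), 333 (320 to 346) and 299 (283 to 316). It was thus lower by 5.68-fold in ULI and 6.32-fold in ULC, and the UL libraries lay close to each other. Anln, the septin scaffold, was at 655 CPM (642 to 667), 288 (276 to 300) and 191 (178 to 204), or 2.28-fold and 3.44-fold lower. Klk6, the protease, was at 361 CPM (352 to 370), 35.9 (31.7 to 40.5) and 90.2 (81.6 to 99.6). It was the only one of these 4 with its lowest level in ULI, 10.1-fold under control, against 4.0-fold in ULC. For each member the 3 intervals were apart.

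By a rule of 2-fold, 4 of the 5 genes were lower in ULI than in control, where 14.0% of all 11598 genes were, and 1 was higher, where 12.7% were. In ULC against control the counts were again 4 lower and 1 higher, where 9.29% and 21.2% of 11544 genes were. The median log2 ratio over all genes was 0.11 for ULI and 0.25 for ULC, against -1.61 and -2.00 over the 5 members. The UL libraries differed less from each other. Between ULI and ULC, 1 of the 5 genes, Klk6, was 2-fold lower in ULI, where 16.9% of 10337 genes were, and none was 2-fold higher, where 2.52% were. The log2 ratio of ULI to ULC was -1.33 (-1.56 to -1.10) for Klk6, -0.80 (-0.86 to -0.75) for Ptgds, 0.52 (0.49 to 0.56) for Apod, 0.59 (0.48 to 0.71) for Anln and 0.15 (0.06 to 0.25) for Trf. Of these, the Ptgds ratio was 0.01 in cells with under 2000 UMIs, and those of Apod and Anln were 0.12 and 0.04 in cells with no newly formed marker.

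**Figure D1:**
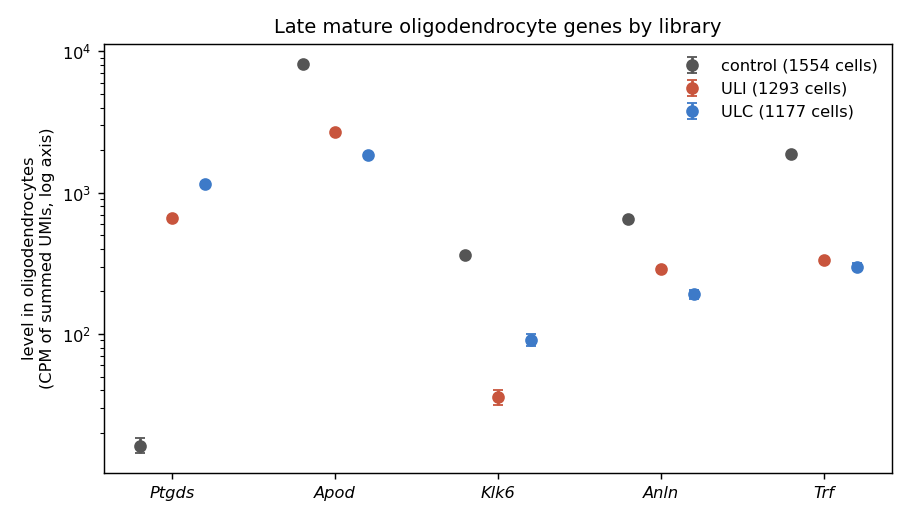
Level of each of the 5 genes in oligodendrocytes of the control, ULI and ULC libraries, in CPM of the summed UMIs on a log axis, with 1 point per library and bars for the exact 95% Poisson interval. Ptgds lies lowest in control (16.2 CPM) and the other 4 genes lie highest there.

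The levels differed with the stage markers of the cells. In ULI, Apod was at 108 CPM (96.3 to 120) in the 266 oligodendrocytes with at least 3 newly formed markers, at 5290 (5207 to 5374) in the 369 with 1 or 2, and at 2781 (2695 to 2868) in the 658 with none. In ULC it was at 94.8 CPM (81.0 to 110) in the 141 cells with at least 3, against 3392 and 2561 in the other two sets. Control had 36 cells with at least 3, and there Apod was still at 3748 CPM (3606 to 3894). The same cells of the UL libraries were poor in the other members too. Klk6 was at 2.97 CPM in ULI and 2.80 in ULC, Anln at 8.91 and 9.53, Trf at 32.4 and 41.5, and Ptgds at 17.5 and 60.0.

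With only the oligodendrocytes that had no newly formed marker, a setting added after the data were seen, Apod was lower than in control by 0.68 on the log2 scale in ULI and by 0.79 in ULC, and Anln by 0.22 and 0.26, so that neither passed 2-fold. Trf (-1.26 and -1.44) and Klk6 (-3.01 and -1.03) still did, and Ptgds stayed at 5.31 and 5.81. These cells were shallow, with medians of 1105, 742 and 736 UMIs in control, ULI and ULC. In control, Apod was at 4442 CPM in them and Anln at 315, against 8157 and 655 in all oligodendrocytes. In ULI they were at 2781 and 271 CPM, against 2675 and 288, and in ULC at 2561 and 264, against 1861 and 191. The ratio of ULI to control thus moved mostly with the control level. Left out were 977 control cells with 1 or 2 such markers (median 13568 UMIs, Apod at 8729 CPM). Leaving out oligodendrocytes that also reached another class, the newly formed class included, gave log2 ratios of -0.88 and -1.25 for Apod. For Anln they were -0.46 and -0.91, so that 2 members were lower by 2-fold in ULI and 3 in ULC. Anln in ULI was less than 2-fold lower under 6 of the 14 alternatives tried. In summed counts, fewer cells that make a gene and less of its RNA per cell cannot be told apart.

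Depth was not equal between libraries, so the genes were also followed in cells of like depth. Ptgds was higher in ULI and ULC than in control at each of 5 depths. The 613 control cells with at least 10000 UMIs had 17.9 CPM (15.7 to 20.2), the 343 ULI cells 486 (467 to 505) and the 182 ULC cells 1143 (1107 to 1181). In cells with under 1000 UMIs there was 1 Ptgds UMI in 336 control cells, against 259 in 555 ULI and 443 in 735 ULC cells. Apod, Klk6 and Trf were lower in both UL libraries at each depth, although the intervals of Klk6 in control and ULC overlapped at 5000 to 9999 UMIs. For Anln the libraries came close in the middle. In cells with 2000 to 4999 UMIs control had 302 CPM (258 to 352), ULI 294 (243 to 351) and ULC 241 (174 to 324). In control, the level of the 4 genes was itself lower at middle depths. Apod was at 9972 CPM in the shallowest cells, 2669 (2576 to 2765) in the 160 cells with 5000 to 9999 UMIs and 8722 in the deepest.

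**Figure D2:**
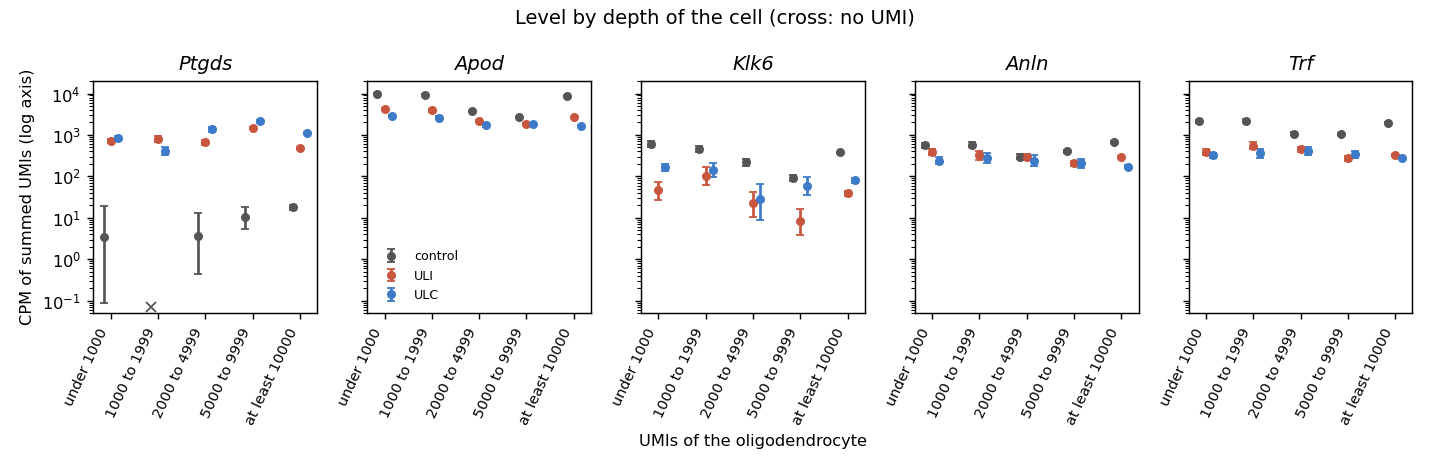
Level of each gene (CPM of summed UMIs, log axis) in oligodendrocytes split by their own depth in UMIs, for control, ULI and ULC, with bars for the exact 95% Poisson interval and a cross where no UMI was found. Ptgds in control stays under 20 CPM at every depth, and the Anln points of the 3 libraries meet at 2000 to 4999 UMIs.

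To count cells at equal depth, each oligodendrocyte was thinned, that is, 1000 of its UMIs were drawn at random, and shallower cells were left out (336 control, 555 ULI and 735 ULC cells). This left 1218 control, 738 ULI and 442 ULC cells. A Ptgds UMI was present in 1.31% (0.753 to 2.12) of the control cells, 16.8% (14.2 to 19.7) of those from ULI and 23.8% (19.9 to 28.0) of those from ULC. Before thinning the shares were 3.09%, 24.1% and 25.6%. So most oligodendrocytes of the UL libraries had no Ptgds UMI at this depth, and those with one held more of it: a mean of 4.41 UMIs in ULI and 4.52 in ULC, against 1.50 in the 16 control cells. The richest thinned cell held 5 Ptgds UMIs in control and 34 in each UL library, and 13 ULI and 15 ULC cells held at least 10, where no control cell did.

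The other 4 genes were found in fewer cells of the UL libraries. Apod was in 85.7% (83.6 to 87.6) of thinned control cells, but in 40.4% (36.8 to 44.0) from ULI and 36.0% (31.5 to 40.6) from ULC, and before thinning in 92.3%, 53.4% and 46.3%. Trf was in 69.0% (66.4 to 71.6), 23.7% (20.7 to 27.0) and 18.3% of thinned cells, and before thinning in 84.9%, 34.1% and 24.8%. Anln was in 36.9% (34.1 to 39.6), 18.7% (15.9 to 21.7) and 14.7% (11.5 to 18.4), and before thinning in 63.3%, 25.7% and 17.3%. Klk6 was in 22.6% (20.3 to 25.0), 3.39% (2.20 to 4.96) and 6.11% (4.06 to 8.76), and before thinning in 45.3%, 6.26% and 8.41%. Among the cells that did have a UMI, Apod fell less, with means of 8.20, 6.48 and 5.68 UMIs, and Klk6 was at 1.49, 1.32 and 1.44. Trf was at 2.46 UMIs in control and 1.65 and 1.91 in ULI and ULC, and Anln at 1.47, 1.57 and 1.42. Such a mean cannot be under 1, and Klk6 and Anln lay near that bound. For them it cannot show whether the level per cell changed. Over all thinned cells the mean of Klk6 was 0.337, 0.0447 and 0.0882 UMIs.

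Microglia, the immune cells of the brain, gave the share to be read as background from free RNA for the genes other than Trf. Their medians were 3120, 2366 and 2818 UMIs before thinning. In microglia thinned in the same way Ptgds was in 0 of 1526 control cells, 0.435% of ULI and 0.639% of ULC cells, and Klk6 in 0.262% of control and in no ULI or ULC cells. Apod was in 4.46%, 1.16% and 2.24% and Anln in 0.721%, 0.290% and 0.639%. These all lay under the shares in oligodendrocytes of the same library. For Trf the microglia were at 15.1%, 9.43% and 11.5%, and in ULC their interval overlapped that of oligodendrocytes, at 18.3% (14.8 to 22.3). Trf was at 184, 128 and 132 CPM in microglia, against 21.5, 3.78 and 2.53 CPM in precursors of the same libraries. So the Trf share in microglia is not read as background, and its source was not tested.

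Fewer of the genes were found together in a cell of the UL libraries. None of the 5 had a UMI in 9.77% (8.16 to 11.6) of thinned cells of the control, but in 48.8% (45.1 to 52.5) from ULI and 48.0% (43.2 to 52.7) from ULC. At least 3 were found in 40.6% (37.8 to 43.4), 16.3% (13.7 to 19.1) and 13.8% (10.7 to 17.4). No cell of any library held all 5, which allows a share of up to 0.302% in control, 0.499% in ULI and 0.831% in ULC.

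**Figure D3:**
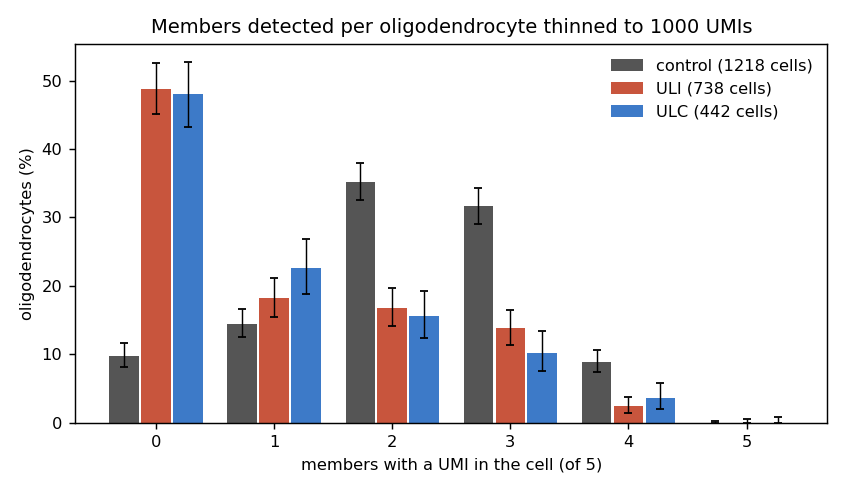
Share of oligodendrocytes, thinned to 1000 UMIs, by the number of the 5 genes with a UMI in the cell, for 1218 control, 738 ULI and 442 ULC cells, with exact 95% binomial intervals. The most common number is 2 in control and 0 in ULI and ULC, and no cell holds all 5.

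Which genes were found together was much the same from library to library for Apod, Klk6, Anln and Trf. In each of their 6 pairs, cells with one gene had the other more often than cells without it did, in control, ULI and ULC, with intervals that did not overlap. Nearly all cells with Klk6 had Apod, the gene found most often overall. Apod was found in 98.9% (96.8 to 99.8) of control cells with Klk6, 96.0% (79.6 to 99.9) of such ULI cells and 100% (87.2 to 100) of such ULC cells, against 81.9%, 38.4% and 31.8% of the cells without Klk6. Anln cells had Apod in 95.8%, 91.3% and 95.4% of cases, and Trf cells in 95.5%, 82.3% and 75.3%. Anln and Trf met in 346 control, 79 ULI and 36 ULC cells, where 310, 32.7 and 11.9 would be found if the genes were unrelated. With only the cells that had no newly formed marker, a smaller and shallower set, 2 of the 6 pairs in ULI and 3 in ULC were still apart, and the part of stage or depth in this was not tested.

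Ptgds did not share this pattern. It was found with Klk6 in 1 cell each of control and ULI and in no cell of ULC, where 3.61, 4.20 and 6.41 cells would be found if the genes were unrelated. In ULC, 0 of the 27 cells with Klk6 had Ptgds (0 to 12.8%), against 25.3% (21.2 to 29.8) of the 415 without. In ULI the shares were 4.0% (0.101 to 20.4) of 25 cells and 17.3% (14.5 to 20.2) of 713, which overlap, and control had only 16 Ptgds cells. With Apod the direction was not the same in each library. Apod was in 58.9% (49.7 to 67.6) of ULI cells with Ptgds and 36.6% (32.8 to 40.6) of those without, and in ULC in 46.7% (36.9 to 56.7) and 32.6% (27.7 to 37.9), which overlap. In control it was in 62.5% (35.4 to 84.8) of the 16 Ptgds cells and 86.0% (83.9 to 87.9) of the rest. The ULI difference turned to -5.02 percentage points among cells with no newly formed marker. Anln was in 0 of the 16 control cells with Ptgds (0 to 20.6%) and in 37.4% of the others, a gap not seen in ULI (24.2% and 17.6%) or ULC (17.1% and 13.9%).

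**Figure D4:**
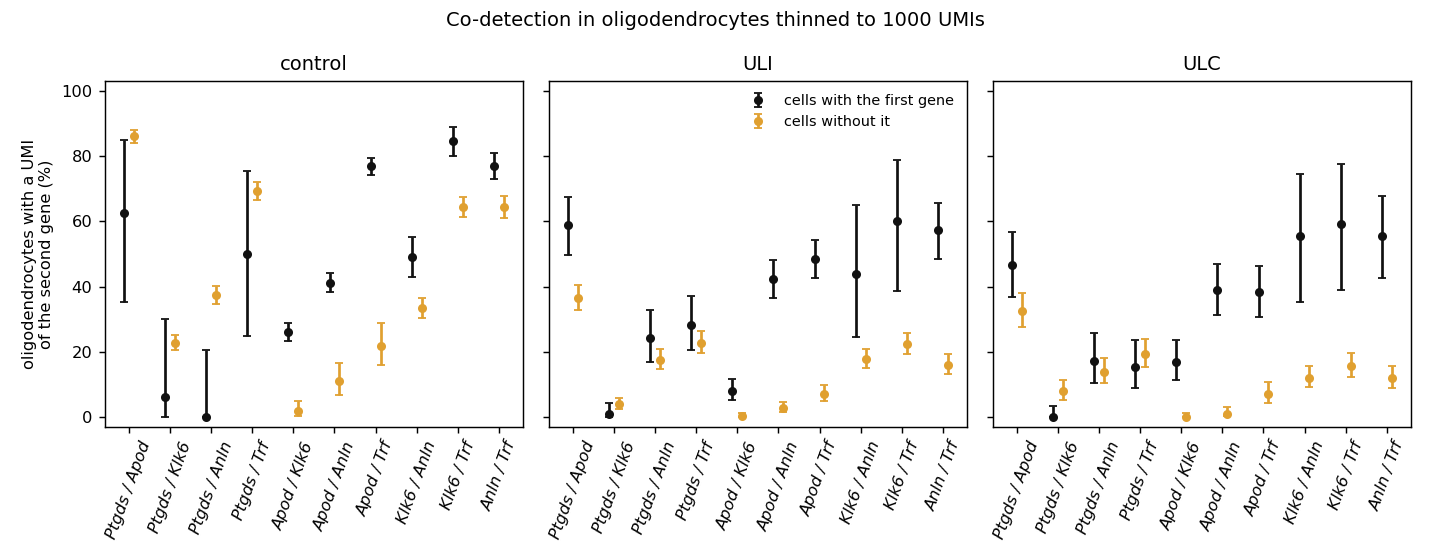
For each pair of genes, the share of thinned oligodendrocytes with a UMI of the second gene among cells with the first gene (black) and without it (orange), in control, ULI and ULC, with exact 95% binomial intervals. The 6 pairs without Ptgds have the black point above the orange one in each library, and Ptgds with Klk6 has it below.

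Other genes were then ranked by how much they were like each member. Across thinned oligodendrocytes, the gene whose level was most like that of Apod, by the lowest correlation of ln(1+UMI) over the 3 libraries among 2120 genes, was Fth1, the heavy chain of the iron store ferritin (r = 0.67, 0.75 and 0.70 in control, ULI and ULC over 1218, 738 and 442 cells). Trf was also most like Fth1 (0.37, 0.48 and 0.38). Next for Apod came the myelin gene Mal (0.56, 0.57 and 0.55). Gm6977, a processed pseudogene at chrX:90744546-90745062, came after Mal, and then Fez1 and Ermn. Mal, Fez1, Gm6977 and Gpm6b followed for Trf. Anln was most like Mal (0.25, 0.35 and 0.37), and Gpm6b, Fth1 and Aplp1 were also among its 5 nearest. Klk6 was most like Rab37 (0.21, 0.30 and 0.49), then Fth1, Gm6977, Fez1 and Stmn1. These cells share a library and are sparse at this depth, so the coefficients are descriptive.

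Ptgds was most like a different set, with low values in control, where it was in few cells: Mgp (0.12, 0.33 and 0.25), which codes for matrix Gla protein, Car2 (0.11, 0.30 and 0.31), the carbonic anhydrase of oligodendrocytes, and then Tnfaip6, Mt1 and Cntn2. Its correlation with the other 4 members lay between -0.12 and 0.07 in all 3 libraries. Among themselves those 4 reached 0.09 to 0.49 in control, and 0.10 to 0.56 and 0.25 to 0.54 in ULI and ULC.

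Oligodendrocytes with at least 3 of the members (494 control, 120 ULI and 61 ULC cells) were then set against those with at most 1 (295, 494 and 312 cells). Of 5073 genes other than the members, 13.7% were higher and 33.1% lower in all 3 libraries, and the 10 highest and lowest are named here as a description. Rab37 led, with 379 CPM against 67.8 in control, 300 against 26.3 in ULI and 541 against 9.62 in ULC. Col6a2, Npb, Hopx, Anxa5, Tubb3, Stmn4, Aspa, Plin3 and Rcan2 followed. Aspa codes for aspartoacylase, which oligodendrocytes use to break down N-acetylaspartate, and it was at 553 against 163 CPM in control, 817 against 188 in ULI and 426 against 109 in ULC. Among the genes that were lower Marcks led, with 52.6 against 2047 CPM in control, 75.0 against 5298 in ULI and 82.0 against 3551 in ULC. Tmem2, Slc1a1, Vcan, Fads1, Bcan, Ptprz1, Kank1, Cd9 and Gsto1 followed, and of these Vcan, Bcan and Ptprz1 are well known in oligodendrocyte precursors.

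Of 15 other genes listed for late mature oligodendrocytes, 11 were measured in this split. In cells with at least 3 members, 10 of them were higher in all 3 libraries, where 13.7% of all genes were. The median log2 ratio of the 11 was 1.41 in control, 2.47 in ULI and 2.14 in ULC. The medians over all genes were -0.05, -0.28 and -0.23. Compact myelin genes were higher for 6 of 10, and myelin-forming stage genes were lower for 5 of 6, where 33.1% of all genes were lower. The 3 newly formed genes measured had medians of -2.50, -4.40 and -4.15, so the split also separated cells by stage. The lists were chosen with earlier results of these data known. That most of the late mature list went with the members from cell to cell is thus a description and not support.

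Single genes of the list did not all go with both Ptgds and Klk6. Car2 was at 2282 CPM in ULI cells with Ptgds and 805 in those without (log2 1.50, 1.29 to 1.72), at 1667 and 567 in ULC (1.56, 1.25 to 1.86) and at 3188 and 1073 in control (1.57, 1.14 to 1.97). By Klk6 it was higher in ULI (0.88, 0.42 to 1.30), lower in control (-0.72, -0.94 to -0.50) and at 0.04 (-0.63 to 0.65) in ULC. Gsn was higher with either gene in ULI, by 0.64 (0.23 to 1.03) with Ptgds and 0.70 (-0.13 to 1.42) with Klk6. The same held in ULC, by 0.34 (-0.03 to 0.70) and 1.64 (1.18 to 2.07), although 2 of these 4 intervals reached below 0. In control Gsn was at -0.74 (-1.65 to 0.04) by Ptgds and 0.41 (0.25 to 0.57) by Klk6. S100b, a calcium-binding protein, was lower in Ptgds cells by 2.31, 2.65 and 1.90 on the log2 scale in control, ULI and ULC. In cells with Klk6 it was higher, by 0.90, 1.18 (0.55 to 1.76) and 2.28 (1.95 to 2.60). Anxa5, an annexin, was higher in Klk6 cells too, with 1055 against 462 CPM in control, 600 against 77.1 in ULI and 222 against 60.2 in ULC. The 16 Ptgds cells of control held no Anxa5 UMI, where cells without Ptgds had 604 CPM. The 124 Ptgds cells of ULI held 1, at 8.06 against 112 CPM (log2 -3.80, -9.12 to -1.27). The 105 of ULC held 3, at 28.6 against 83.1 CPM (log2 -1.54, -3.90 to 0.15), an interval that reached above 0.

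Between libraries, most of the late mature list moved as Apod and Trf did. In ULI, 10 of 15 genes were at least 2-fold lower than in control, at a median log2 ratio of -1.66, and in ULC 10 of 13, at -2.01. The shares over all genes were 14.0% and 9.29%. S100b was at 2829 CPM in control and at 516 and 858 in ULI and ULC, Gsn at 1510, 447 and 738, and Anxa5 at 671, 93.0 and 74.0. Car2 moved little (1264, 1043 and 897 CPM). The genes 2-fold higher in ULI, where 12.7% of all genes were, were Il33 and Jph4, named after their values were seen. They were at 5.69 and 6.77 CPM against 0.971 and 1.88 in control.

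Genes of earlier stages were higher in the UL libraries. All 8 measured genes of the newly formed list were at least 2-fold higher in ULI and 7 of 8 in ULC, with medians of 3.09 and 3.37. In ULI 12.7% of all genes were higher, and in ULC 21.2%. The 8 include Bmp4, Enpp6, Gpr17, Neu4 and Tmem2, the markers used above for the newly formed stage. For these markers the rise repeats that of their summed level. Tcf7l2, a transcription factor of the newly formed stage, had 38.5 CPM in control, against 539 and 448 in ULI and ULC. Gpr17 was at 50.5, 352 and 538 CPM and Enpp6 at 632, 1337 and 1191, and Tmem2 was 3.13 and 2.62 higher on the log2 scale. Of the myelin-forming list, 6 of 8 were higher in ULI and 5 of 7 in ULC, with Fam214a at 39.0, 158 and 250 CPM and Serinc5 at 156, 357 and 420. That list holds Opalin, which is also among the markers by which oligodendrocytes were picked. Tspan2 (log2 0.38 and 0.10) and Birc2 (0.58 and 0.53) were not past 2-fold.

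Compact myelin genes moved less than the members. By the same rule 3 of 10 were lower in ULI, at a median of -0.74, and 4 of 10 in ULC, at -0.89, where 14.0% and 9.29% of all genes were. None was higher, where 12.7% and 21.2% of all genes were. Mal, a membrane protein of the sheath, was at 9512, 6377 and 5433 CPM in control, ULI and ULC. Mbp was at 8688, 5419 and 12207 CPM, so that it went down in ULI and up in ULC. Ugt8a, which makes the galactolipids of myelin, was lower by 0.81 and 1.24 on the log2 scale. Those past 2-fold in ULI included Gjb1 (-2.33) and Cnp (-1.02), and in ULC Aspa (-1.28), Ugt8a and Gjb1 (-1.19), of which Gjb1, Cnp and Aspa were named after their values were seen.

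Genes that work with the members did not all move with them. The septins, which anillin holds in place in myelin, were mostly level: Sept7 was at 2846, 2975 and 2598 CPM in the order control, ULI and ULC, Sept4 at 858, 899 and 878, and Sept2 at 560, 642 and 493. Sept8 was lower by 1.63 and 1.36 on the log2 scale. By the 2-fold rule it was 1 of 7 septins lower in ULC, where 9.29% of all genes were. In ULI, where 14.0% of all genes were lower, it was joined by Sept9 (-2.13), named after its value was seen. No septin was 2-fold higher, where 12.7% of all genes were in ULI and 21.2% in ULC.

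Of the other genes that make, turn over or sense prostaglandin D2, without Ptgds itself, none was 2-fold higher in ULI or ULC. In ULI, 4 of 6 were lower, at a median of -1.13, and in ULC 3 of 5, at -1.18. The shares of all genes were 14.0% and 9.29% lower, and 12.7% and 21.2% higher. Pla2g4a, the phospholipase that frees arachidonic acid, was at 148, 69.1 and 53.2 CPM in the same order, and Ptgs1, the cyclooxygenase COX-1, at 24.1, 10.7 and 12.1. Hpgds, the other prostaglandin D2 synthase, was at 16.3, 3.25 and 4.57 CPM, and Hpgd, which inactivates prostaglandins, at 11.9, 7.31 and 5.25. The fourth gene lower in ULI was Akr1b3 (48 UMIs in control, 3 in ULI), named after its value was seen. The 6 microglia markers also fell within the oligodendrocytes, from a summed 327 CPM for control to 69.7 for ULI and 58.7 for ULC. What share of the prostaglandin ratios came from microglial RNA was not tested. Of the receptors, Ptgdr had no UMI in oligodendrocytes and Ptgdr2 had 1, in control.

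Iron genes around Trf did not move one way, with medians of 0.27 in ULI and 0.25 in ULC. Fth1 was at 18780, 14660 and 9704 CPM, the transferrin receptor Tfrc at 127, 87.3 and 73.8, Pcbp1 at 392, 505 and 465, and Ireb2 at 88.4, 127 and 105. In ULI 1 of 12 was higher and 1 lower by 2-fold, where 12.7% and 14.0% of all genes were. They were Steap2 (3.45) and Slc40a1 (-2.60), the iron exporter ferroportin. In ULC 3 of 13 were higher, Steap2 (3.72), Slc11a2 (1.40) and Ftl1 (5.98, on 89 UMIs), and 2 lower, Cp (-1.34) and Slc40a1, at 0 UMIs, where 21.2% and 9.29% of all genes were. These 5 were named after their values were seen. Reads of abundant genes such as Fth1 and of their processed copies can be split in counting, so the values of Fth1, Ftl1 and the pseudogene Gm6977 are uncertain.

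Around Apod, among lipocalins and lipid carriers, 1 of 5 was 2-fold higher in ULI, Fabp7 (1.62), and 2 lower, Bsg (-2.53), a receptor that binds apolipoprotein D, and Apoe (-1.68). In ULC 3 of 6 were higher, Fabp7 (1.34), Clu (2.35) and Lepr (2.31), the last 2 named after their values were seen, and Bsg was at 0.53. Over all genes, 12.7% were higher and 14.0% lower in ULI, and 21.2% were higher in ULC. Clu and Lepr are also known from the choroid plexus, whose 6 markers summed to 293 CPM in ULC oligodendrocytes, and the part of plexus RNA in these ratios was not tested. Fabp5 was level (358, 378 and 324 CPM). Around Klk6, 1 gene of the kallikrein list passed the minimum, Serpine2, a serine protease inhibitor, at 44.5, 118 and 99.1 CPM. Klk9 had 33, 0 and 5 UMIs, Serpina3n 9, 22 and 10, and the receptor F2r 32, 6 and 5.

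The genes were next placed among the cell classes, where a cell of another class had at least 3 of its 6 markers (5 for newly formed cells), fewer than 3 of any other class and was not an oligodendrocyte. All 5 members were at least 2-fold higher in oligodendrocytes than in microglia in each library, where 26.2% of genes were in control, 27.6% in ULI and 30.2% in ULC. They were also 2-fold higher than in precursors in each library, where 15.6%, 12% and 13.2% of genes were. Against astrocytes the same held, where 27.3%, 28.7% and 34.2% of genes were. Against newly formed cells the same held in ULI (12.5% of genes) and ULC (18.7%), and in control (33.1%) for 4 of the 5. In control, Ptgds had no UMI in the 16 newly formed cells, whose floor of 3 counts lay above the level in oligodendrocytes. In all these comparisons between classes, such a floor was used for the members only. The shares of all genes were counted with no floor, so a gene found only in oligodendrocytes passed. These shares thus follow a laxer rule and are not a like-for-like background. Some intervals reached under 2-fold. Ptgds over astrocytes in control was at log2 1.27 (0.03 to 2.90), on 5 astrocyte UMIs. Klk6 over astrocytes in ULI was at 2.03 (0.78 to 3.66), and Trf over microglia in ULC at 1.19 (0.92 to 1.46).

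Klk6 was low in the other classes: the highest level in any of the 12 was 11.4 CPM (3.10 to 29.1), in ULC endothelial cells, 7.93-fold under ULC oligodendrocytes, and 8 classes had no Klk6 UMI in 2 or more libraries. Its level in ULI oligodendrocytes was itself low, 4.07-fold above ULI astrocytes. Anln had at most 21.3 CPM (10.6 to 38.1), in control perivascular macrophages. Among the classes beneath oligodendrocytes the intervals of both genes overlapped widely, so no order could be read. Precursors were at 17.9, 5.30 and 3.79 CPM for Anln.

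Trf was also found in immune cells and at the borders of the brain. Perivascular macrophages had 335 CPM (287 to 389) in control and 122 and 199 in ULI and ULC, and microglia had 184 (172 to 196), 128 (112 to 144) and 132 (110 to 156). Choroid plexus epithelium had 278 CPM (213 to 357), 29.6 and 35.5, and fibroblasts of the meninges 217, 81.4 and 197. In control the intervals of macrophages and plexus overlapped, as did those of plexus and fibroblasts, while microglia lay under macrophages and plexus. In ULI all 7 other classes with enough UMIs were lower than in control, and in ULC 6 of 7, at median log2 ratios of -2.13 and -0.75. Some of these classes rest on few UMIs, such as precursors with 18 in control and 5 in ULI, and the part of free oligodendrocyte RNA in them was not tested.

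Ptgds was at its highest outside oligodendrocytes in choroid plexus epithelium, with 987 CPM (861 to 1127) in 21 control cells, 594 (549 to 642) in 148 ULI cells and 704 (670 to 739) in 414 ULC cells. In control this was 61.0-fold above oligodendrocytes, but in ULI and ULC the oligodendrocytes were above the plexus, by 0.15 (0.03 to 0.27) and 0.71 (0.63 to 0.79) on the log2 scale. Next in ULI came fibroblasts, with 203 CPM, all 10 UMIs from 1 cell, and in ULC astrocytes, with 71.2 CPM (44.1 to 109), whose interval overlapped those of neurons, pericytes, endothelial cells and fibroblasts, among others.

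Plexus RNA in oligodendrocytes was followed by Ttr, its most abundant gene, at 845, 1757 and 10185 CPM in control, ULI and ULC. All 6 plexus markers had UMIs there, at summed levels of 21.5, 72.9 and 293 CPM. This Ttr was uneven: 1 cell held 22.4% of it in control and 20.6% in ULI. In ULC it was at 401 CPM in cells with under 1000 UMIs and 31920 in those with 5000 to 9999, and microglia had 977. Whether it was free RNA or came with mixed barcodes was not tested. If every Ttr UMI in oligodendrocytes were plexus RNA with its Ptgds in the same ratio, Ptgds would stand at 7.05, 10.2 and 51.8 CPM, which is 43.5%, 1.55% and 4.50% of the level found. Hbb-bs, a sign of free red cell RNA, was at 0.243, 0.812 and 0.685 CPM.

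Apod was highest of all in fibroblasts of the meninges, on few cells: 32351 CPM (31277 to 33452) in 24 control cells, 59220 (57088 to 61411) in 21 ULI cells and 49143 (47011 to 51346) in 19 ULC cells. Next came oligodendrocytes, and after them endothelial cells, with 421 (373 to 475), 719 (619 to 830) and 754 (666 to 851). In the endothelial cells of each library, 1 cell held 22.3%, 30.1% and 30.6% of these UMIs. Pericytes followed in ULI and ULC, at 358 (298 to 425) and 203 (130 to 303), and apart from endothelial cells, but 57.5% of the ULI pericyte UMIs came from 1 cell. In control perivascular macrophages came after endothelial cells, at 108 (81.9 to 141), whose interval overlapped that of pericytes. If all UMIs of the fibroblast gene Dcn in oligodendrocytes (3.40, 0.406 and 0.457 CPM) were fibroblast RNA, the Apod with them would be 0.331%, 0.125% and 0.208% of the level found in oligodendrocytes.

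**Figure D5:**
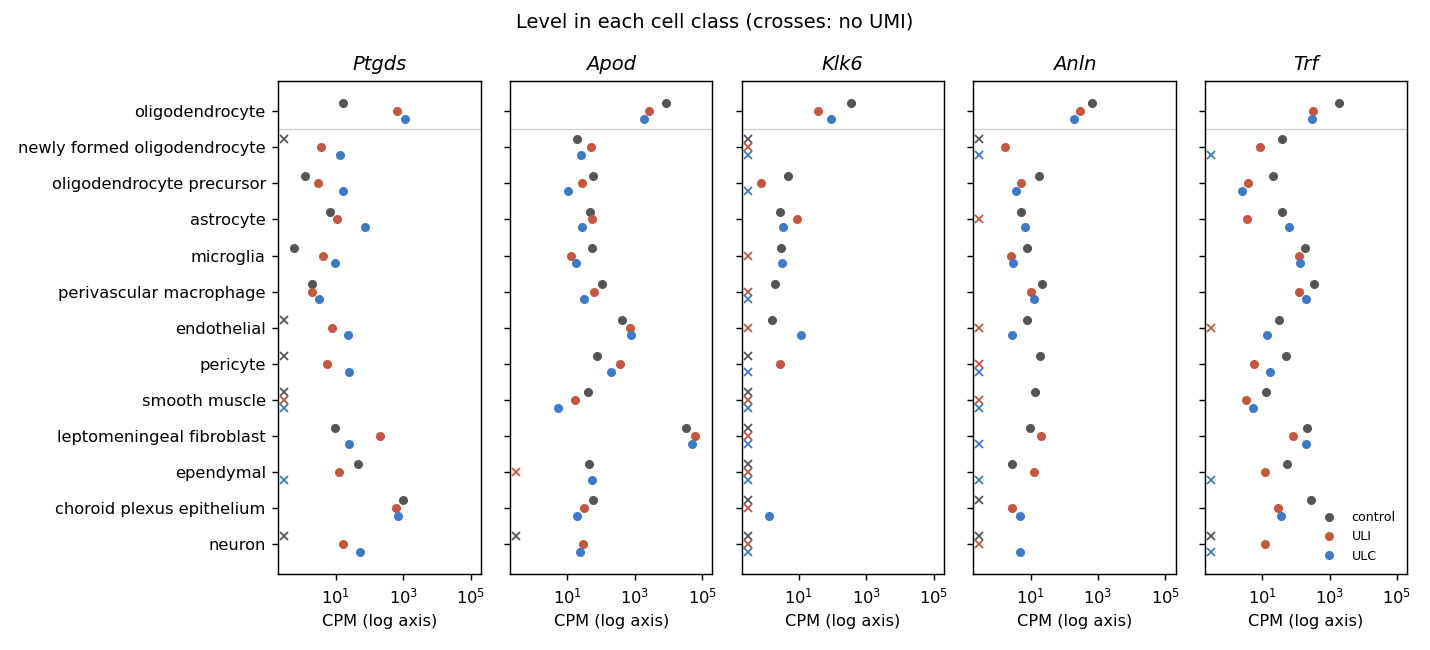
Level of each gene (CPM of summed UMIs, log axis) in oligodendrocytes and 12 other cell classes, with 1 point for each of the control, ULI and ULC libraries and crosses where no UMI was found. Klk6 and Anln are highest in oligodendrocytes, Apod in leptomeningeal fibroblasts, and Ptgds in choroid plexus epithelium in control but in oligodendrocytes in ULI and ULC.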

How the data were processed

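The authors deposited 1 table of UMI counts, whole numbers per gene and barcode, for all 3 libraries, made per the labels with CASAVA 1.8 and UMI-tools against mm10. Seurat is also named. Aligner, annotation and cell calling were "not given in the sources used here", and 3 platforms are named, the 10X protocol, Drop-seq and BD Rhapsody, of which the one used could not be settled. The libraries held 27019650 (control), 17428194 (ULI) and 12768983 (ULC) UMIs in 4816, 5062 and 4998 barcodes. Groups were taken from the source name of each sample, and barcodes from the prefix of their names.

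From these counts, cells with at least 200 genes were kept and put in classes by at least 3 of 6 markers. Of the newly formed markers, 9630013A20Rik was not in the table, and 5 were used. For each class in a library, UMIs were summed and scaled to their total (CPM), and each UL library was compared with control and ULI with ULC. Ratios over all genes needed 50 UMIs in the pair of libraries. For members compared between classes, the other class had a floor of 3 counts, and the shares of all genes there had none. Cells were thinned to 1000 UMIs without replacement (seed 1), and shallower cells were left out. No doublet caller was run, and cells of more than 1 class were left out as an alternative. Intervals are exact at 95%. With 1 library per group no test over samples could be made.

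The members and the 9 gene lists were chosen with earlier results of these data known. Cnksr3, Klk1, Klk5 and Klk14 of the lists were not in the table. The genes named are the members, the 4 genes of each list with the most UMIs in oligodendrocytes, the 5 genes most like each member among those in at least 5% of thinned oligodendrocytes of each library, the 10 highest and 10 lowest between cells with many and few members (same sign in all 3 libraries, ranked by the ratio nearest 0, at least 50 UMIs), and Ttr and Hbb-bs. Some genes that this rule names are not reported here. Dcn was added as the fibroblast gene. Other cut-offs, scalings, marker rules and thinning depths were tried as alternatives. The steps were tested on simulated data. Tools were Python 3.11.15 (scipy 1.17.1, numpy 2.4.6, matplotlib 3.10.9, pandas 2.3.3) and, for scaling factors, DESeq2 1.42.0 and edgeR 4.0.16 in R 4.3.3.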

Additional observations from a re-analysis of the deposited data

Results flagged for a closer look

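Some members moved in another class in the direction opposite to oligodendrocytes, with intervals on either side of 0. Ptgds was lower than in control in choroid plexus epithelium, by a log2 ratio of -0.73 (-0.96 to -0.51) in ULI and -0.49 (-0.69 to -0.28) in ULC, where oligodendrocytes were higher. The control value rests on 21 plexus cells. Apod was higher in endothelial cells, by 0.77 (0.49 to 1.05) in ULI and 0.84 (0.59 to 1.09) in ULC, and in leptomeningeal fibroblasts, by 0.87 (0.80 to 0.94) and 0.60 (0.52 to 0.68), where oligodendrocytes were lower. The fibroblasts were 24 control, 21 ULI and 19 ULC cells. With 1 library per group these differences between classes were not tested.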

How the results depend on the processing

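No paired analysis was possible because each group was 1 library, and for the same reason no library could be left out. Over 14 alternatives, 4 of them added after the data were seen, no ratio of a member to control changed direction: for ULI and ULC the log2 ratio ranged from 4.46 to 8.89 and from 5.22 to 8.87 for Ptgds, from -1.78 to -0.68 and from -2.36 to -0.79 for Apod, from -3.51 to -2.68 and from -2.23 to -1.03 for Klk6, from -1.36 to -0.22 and from -2.03 to -0.26 for Anln, and from -2.68 to -1.26 and from -2.89 to -1.44 for Trf. The ratio of ULI to ULC ranged from -0.92 to 0.01 for Ptgds, from 0.12 to 0.63 for Apod, from -1.98 to -1.19 for Klk6, from 0.04 to 0.70 for Anln and from 0.02 to 0.38 for Trf. The members 2-fold lower in ULI than control were 2 instead of 4 without oligodendrocytes that reach another class and 2 without those with a newly formed marker, and in ULC 2 under the latter. Fewer cells enter both settings.

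The number of genes past 2-fold depended on the UMI minimum. With no minimum, 5055 were higher and 6619 lower in ULI than control, 6276 and 5951 in ULC than control, and 3877 and 5810 in ULI than ULC. With at least 200 UMIs the counts were 842 and 872, 1333 and 600, and 53 and 773, against 1474 and 1619, 2449 and 1073, and 260 and 1749 at 50 UMIs. Pairs of Ptgds with another member found together more often, with intervals apart, were 1 in ULI and 0 in ULC. They were 0 in ULI at 500 UMIs, 2 in ULI and 2 in ULC at 2000, and 0 in ULI without cells of another class or with newly formed markers. Of the 6 pairs without Ptgds, 3 stayed apart in ULI without cells of another class, and 2 in ULI and 3 in ULC without cells with newly formed markers. In ULI the difference for Anln by Klk6 turned to -4.47 percentage points under the former, and that for Apod by Ptgds to -5.02 under the latter. The cause was not tested. Depth limits Ptgds in control (267 UMIs) and pairs with Klk6, which had 25 ULI and 27 ULC cells.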
